A study of Mus musculus with 6 samples.

Results

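The respiratory chain genes described here are the 109 genes, of 27998 in the count tables, whose symbols begin with Ndufa, Ndufb, Ndufc, Ndufs, Ndufv, Sdha, Sdhb, Sdhc, Sdhd, Uqcr, Cox4i, Cox5, Cox6, Cox7, Cox8, Atp5 or mt-. Of these, 96 are nuclear genes on 19 chromosomes and 13 are the protein-coding genes of the mitochondrial genome, and the rule reads only these letters. The nuclear genes comprise 36 of complex I, 4 of complex II, 8 of complex III, 20 of or associated with complex IV and 15 of complex V. The prefixes also take in 11 assembly factors of complexes I and II (Ndufaf and Sdhaf) and 2 genes, Atp5s and Atp5sl, that are not core subunits. Cytochrome c and most assembly factors of complex IV fall outside the prefixes and were followed as separate lists.

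The study profiled single cells of the hypothalamic-pituitary-adrenal axis, the hormonal route by which the brain drives glucocorticoid release. The tissues were the hypothalamic paraventricular nucleus (PVN), cut by hand as an extended block, the pituitary and the adrenal of C57BL/6 mice that were 10 weeks old, either controls or mice that went through a chronic social defeat stress paradigm of 21 days. Each of the 6 groups is 1 library made from the tissue of 5 pooled mice, with papain used to dissociate PVN and pituitary and collagenase II used for the adrenal. Control and stress suspensions of a tissue were run together on 1 chip, per the labels, and all mice were perfused before dissection. With 1 pool per group there is no replicate check on any difference between control and stress. No p-value is therefore given, and intervals of levels, shares and ratios cover counting error only. A difference of the pools cannot be told apart from a difference between the conditions.

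The respiratory chain passes electrons from NADH (through complex I) and succinate (through complex II) to coenzyme Q, on to cytochrome c through complex III, and to oxygen through complex IV, cytochrome c oxidase. Proton pumping by complexes I, III and IV drives ATP synthesis by complex V. Complex II is encoded wholly in the nucleus, whereas the other complexes combine nuclear subunits, made in the cytosol and imported, with subunits translated inside the organelle from polycistronic mitochondrial transcripts. Neurons depend heavily on oxidative ATP supply. In steroid-making cells of the adrenal cortex, mitochondria also house the first and last steps of corticosteroid synthesis, which take electrons from a separate ferredoxin system.

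Nuclear respiratory chain genes are known for promoters with sites for ETS-family factors such as GABP, and part of them respond to cAMP through CREB. RefSeq promoters (GRCm38.p6, 250 bases before to 50 after the start) were matched for 80 of the 96 nuclear genes, and motifs were searched as exact letters on both strands. The ETS core CCGGAAG was present in a promoter of 20 of the 80 genes (25%) and of 9.93% of all 27025 genes with a promoter. The cAMP response element TGACGTCA was present in a promoter of 4 of the 80 genes (5%) and of 2.03% of the 27025. A gene with more than 1 promoter was counted once. No match of one motif overlapped a match of the other in these promoters. The stretches shown belong to genes at the extremes of the stress comparison or past 1.2-fold in the most classes, first 5 with the ETS core and then 3 with the cAMP response element. The motif, or its reverse complement, is in capitals, and each stretch reads 5′ to 3′ on the gene's strand.
Atp5k (chr5:108434371-108434397, minus strand): ctcagttgagCTTCCGGcgcgaaggtc
Ndufb6 (chr4:40279637-40279663, minus strand): cgtccttgttCTTCCGGtcccctcccc
Ndufaf1 (chr2:119662836-119662862, minus strand): gggaccacaaCCGGAAGcgtggcgaac
Sdhb (chr4:140961267-140961293, plus strand): ctcggagaaaCCGGAAGcggccttcca
Sdhd (chr9:50603879-50603905, minus strand): cgtctcctgcCTTCCGGttcacgcttc
Ndufa10 (chr1:92473808-92473835, minus strand): cactcagtggTGACGTCAtggcagcgcg
Ndufb2 (chr6:39592541-39592568, plus strand): tgcgacgcagTGACGTCAcgggccggga
Uqcrfs1 (chr13:30545328-30545355, minus strand): ggcgtcgcgcTGACGTCAcaaaccctgc
These genes did not share a response: Atp5k, a complex V subunit, was lower and Ndufb6, a complex I subunit, higher in stress in most pituitary classes, and Uqcrfs1 was lower in every PVN class and higher in adrenal endothelial cells. A motif match is a description of the sequence and not evidence of binding.

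Depth ranged from 29059956 to 53244403 UMIs (unique molecular identifiers, 1 per captured message) and from 5593.5 to 10288 median UMIs per barcode across the 6 libraries. After barcodes with over 25% mitochondrial UMIs, barcodes under 200 genes and called doublets were removed, 3512 control and 3459 stress cells remained in PVN, 4944 and 4880 in pituitary, and 2161 and 2742 in adrenal. Pairs of libraries shared 10 to 39 barcode sequences. Cells were grouped without the respiratory chain genes and named from markers, which gave 21 classes with at least 50 cells in both libraries (8 in PVN, 10 in pituitary, 3 in adrenal). PVN mural cells, pituicytes and adrenal chromaffin cells were below that size and have values that rest on few cells. They enter the ranks of classes by share but no count of classes in the stress over control comparison. A level is the class's UMIs for a gene per 1000000 of its UMIs (CPM); since 3′ UMIs are not scaled to gene length, an order of genes by CPM is an order of UMIs and not of amounts of message.

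Nuclear respiratory chain genes took the largest share of UMIs in adrenal cortex cells and PVN neurons and among the smallest in somatotropes, melanotropes, macrophages and microglia, in both libraries. The 96 nuclear genes together held 4.55% in control and 4.62% in stress in adrenal cortex cells and 4.35% and 4.46% in PVN neurons. Chromaffin cells (3.49% and 3.78%), PVN mural cells (3.42% and 3.70%), gonadotropes (3.28% and 3.43%) and corticotropes (3.23% and 3.14%) came next. PVN microglia held 1.60% and 1.58%, adrenal macrophages 1.46% and 1.59%, pituitary macrophages 1.73% and 1.67%, melanotropes 1.59% and 1.69% and somatotropes 1.35% and 1.31%. The order of classes within a tissue was nearly the same in the control and stress libraries: 7 of 9 PVN classes, 9 of 11 pituitary classes and all 4 adrenal classes held the same rank. Neighbours in that order often differed little; among PVN cells, ependymal cells (2.70% and 2.57%) and tanycytes (2.67% and 2.73%) exchanged places between the libraries.

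The low share in somatotropes sat beside a very large hormone share. Gh, which encodes growth hormone, held 56.6% of somatotrope UMIs in control and 60.1% in stress, and with Gh left out of the total the nuclear genes held 3.10% and 3.27% and the mitochondrially encoded genes 5.83% and 5.60%. These values lie within the range of the other pituitary classes. In bulk sums of a class, as here, more of one message lowers the CPM of all others.

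The mitochondrially encoded genes ranked the classes differently. Thyrotropes (8.23% and 6.46%), gonadotropes (8.01% and 7.28%), chromaffin cells (8.55% and 6.87%), adrenal cortex cells (6.62% and 7.06%) and pituicytes (5.99% and 6.61%) had large shares. Macrophages of the adrenal (2.20% and 2.23%) and pituitary (2.23% and 2.11%), pituitary endothelial cells (2.37% and 2.18%) and somatotropes (2.53% and 2.24%) had the smallest in control, with PVN microglia (2.92% and 2.14%) reaching the same range in stress. Mitochondrially encoded UMIs per nuclear respiratory chain UMI were 1.01 and 1.05 in PVN neurons and 0.952 and 0.918 in pituitary endothelial cells but 3.92 and 2.86 in thyrotropes. The rank of a class by mitochondrial share was kept in 3 of 9 PVN, 8 of 11 pituitary and 2 of 4 adrenal classes.

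**Figure D1:**
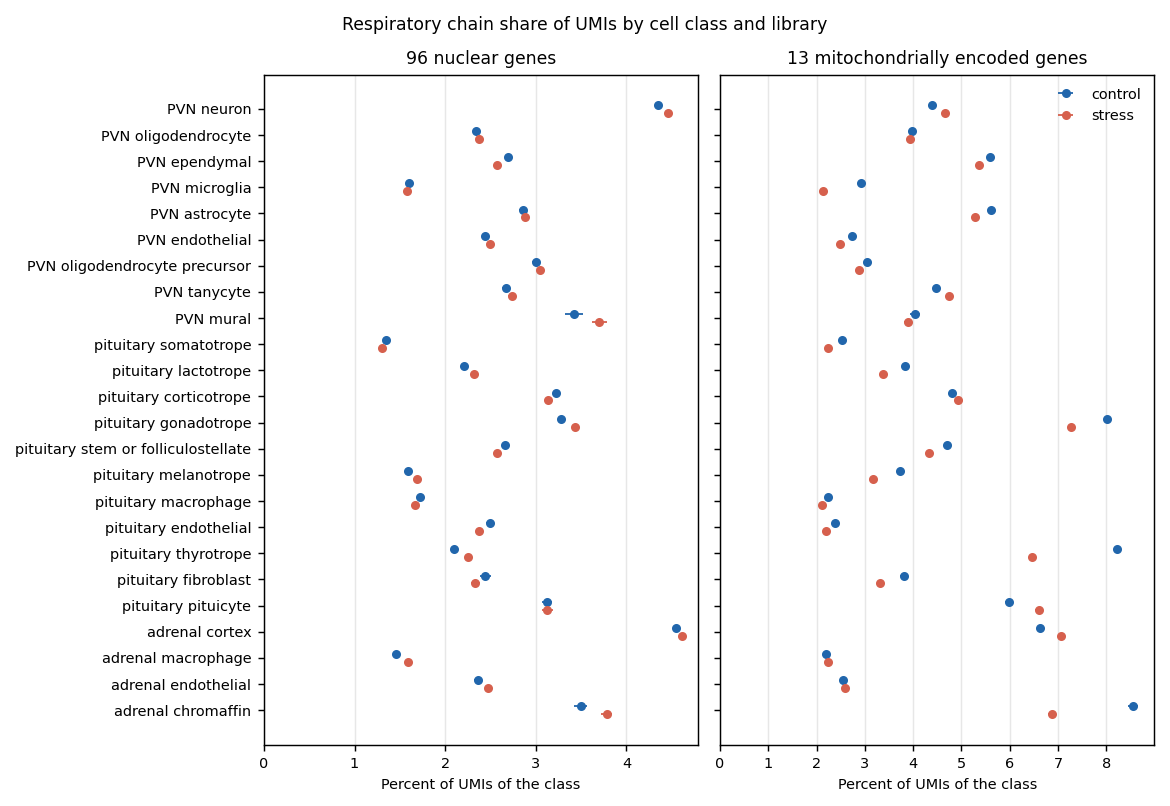
Percent of the UMIs of each cell class that came from the 96 nuclear (left) and 13 mitochondrially encoded (right) respiratory chain genes, with 1 point per library and exact 95% intervals of the count. Adrenal cortex cells and PVN neurons lie farthest right among nuclear shares (4.35% to 4.62%), and PVN microglia, thyrotropes and chromaffin cells show the widest gaps between control and stress among mitochondrially encoded shares.

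Within classes the 2 parts of the chain could also diverge from cell to cell. One of 9 neuron clusters of the PVN, cluster 9 (190 and 247 cells, led by Slc32a1 and Gad1, genes of inhibitory GABA neurons, and Qrfpr), held 11.6% and 11.2% mitochondrially encoded UMIs in control and stress but 2.22% and 2.30% nuclear ones. The other 8 neuron clusters held 2.85% to 4.87% mitochondrially encoded and 3.37% to 5.49% nuclear UMIs over both libraries. The median depth of cluster 9 was 4784 and 4783 UMIs, against 10801.5 and 10742.5 over all neurons, and the part of depth or RNA quality in its profile was not tested. The profile was present in both libraries alike.

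The nuclear gene with the most UMIs in each complex over all kept cells of a tissue was usually a structural or supernumerary subunit. In PVN that gene of complex I was Ndufa13, an accessory subunit, at 768 CPM in control and 791 CPM in stress. In complex II it was the iron-sulfur subunit Sdhb (307 and 303 CPM), in complex III the hinge protein gene Uqcrh (646 and 642 CPM), in complex IV Cox4i1 (1494 and 1494 CPM) and in complex V the catalytic beta subunit Atp5b (855 and 923 CPM). Ndufa13, Cox4i1, Ndufb2 and Ndufb8 overlap another gene of the tables on the same strand (Yjefn3, Gm20388, Gm42420 and Gm20538), so their UMIs are less certain than the others. On the other strand, 29 of the 96 nuclear genes overlap such a gene, among them Cox4i1 (Emc8) and Ndufa4l2 (Shmt2).

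In pituitary these genes were Ndufa13 (340.4 and 334 CPM), the flavoprotein Sdha (116 and 95.96 CPM), Uqcrh (447 and 443 CPM), Cox8a (605 and 589.6 CPM) and Atp5l (549.8 and 527 CPM). In adrenal they were Ndufa7 (963 and 872 CPM), Sdhb (364 and 383 CPM), Uqcr11 (1071 and 1054 CPM), Cox4i1 (1612 and 1546 CPM) and Atp5l (1155 and 1107 CPM). Of these 15 values, Sdha in the pituitary had the lowest stress over control ratio, a log2 ratio of -0.27, and no other was as much as 1.2-fold from control.

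Several members encode alternative versions of 1 subunit, and 6 of these varied widely between cell classes (mouse GRCm38 coordinates of the gene: Cox4i2 chr2:152754173-152765037, Ndufa4l2 chr10:127514967-127517154, Cox8b chr7:140898945-140900446, Cox6b2 chr7:4751792-4753094, Cox6a2 chr7:128205435-128206387, Cox7a1 chr7:30184144-30186078). Vascular mural cells carried the complex IV variants Cox4i2 and Ndufa4l2, both known as genes induced by low oxygen in other settings. In PVN mural cells Cox4i2 was at 720 CPM in control and 736 CPM in stress, from 88 and 160 UMIs, beside 1121 and 1168 CPM for the common version Cox4i1. PVN endothelial cells had 25.7 and 18.1 CPM and neurons 1.17 and 0.711 CPM of Cox4i2. A Cox4i2 UMI was found in 26 of 33 control cells and 46 of 55 stress cells of the mural class, which is 66.7% and 72.7% after cells were thinned to 2000 UMIs, against 0.943% and 0.824% of neurons without thinning. The counting intervals of control and stress overlapped.

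Ndufa4l2, the paralog of the complex IV component Ndufa4, was at 1366 CPM in control and 1159 CPM in stress in PVN mural cells, from 167 and 252 UMIs. The second site of Ndufa4l2 was the adrenal chromaffin cell, the catecholamine-making cell of the medulla, with 1256 CPM in control and 2077 CPM in stress, a log2 ratio of 0.72 (95% interval 0.53 to 0.93), from 28 and 41 cells. Adrenal cortex cells of the same suspensions had 0.494 and 1.63 CPM. A UMI of Ndufa4l2 was present in 75% and 80.5% of chromaffin cells and 0.712% and 2.04% of cortex cells (thinned to 2000 UMIs, 57.1% and 75.6% against 0.129% and 0.467%). Median depths of the 2 classes were 6892 and 7736 UMIs in chromaffin and 11617 and 11201.5 UMIs in cortex cells. Ndufa4 itself was at 607 and 557 CPM in chromaffin cells and 393 and 510.4 CPM in mural cells, beside 1349 and 1343 CPM in neurons.

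Cox8b, a heart- and muscle-type version of complex IV subunit 8, was present in chromaffin cells at 3372 CPM in control and 4751 CPM in stress, from 800 and 1672 UMIs. This gave a log2 ratio of 0.49 (95% interval 0.37 to 0.62), with 28 control and 41 stress cells behind it. Cortex cells had 0.808 and 2.99 CPM, and a UMI of Cox8b was found in 67.9% and 78.05% of chromaffin cells and 1.17% and 3.73% of cortex cells (thinned, 57.1% and 58.5% against 0.194% and 1.17%). The common version Cox8a was at 1003 and 1102 CPM in chromaffin cells.

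Cox6b2, described as a testis-type version of subunit 6b, was a pituitary fibroblast gene in these libraries, with 522 CPM in control and 496 CPM in stress from 120 and 184 UMIs. Stem or folliculostellate cells followed with 70.5 and 66 CPM. A UMI was found in 69.6% and 68.8% of fibroblasts and 0.559% and 0.290% of somatotropes (thinned, 53.6% and 47.5% against 0.186% and 0.0322%). The fold between the highest and lowest pituitary class was at least 77.2 in control and at least 139 in stress, where the lowest class had no UMI and was set at 3 counts.

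Cox6a2, the heart- and muscle-type version of subunit 6a, was highest in PVN tanycytes, the cells that line the floor of the third ventricle, with 95.1 CPM in control and 95.2 CPM in stress from 81 and 55 UMIs. Neurons had 17.5 CPM in control and 11.6 CPM in stress, a log2 ratio of -0.59 (95% interval -0.85 to -0.34), the lowest ratio of any nuclear gene in that class. It was lower in stress in 7 of 9 neuron clusters, but clusters 9, 17 and 19 had at most 3 UMIs in either library. Levels were highest in clusters 10 (55.3 and 51.02 CPM) and 13 (49.3 and 26.9 CPM). In cluster 10 the log2 ratio was -0.12 (95% interval -0.50 to 0.27). Cluster 13 had 176 control and 88 stress cells, and the ratio over all neurons does not separate level from the mix of clusters. Cox6a2 overlaps Itgad on the other strand.

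Cox7a1, the heart- and muscle-type version of subunit 7a, was highest in the adrenal cortex at 66.98 CPM in control and 53.5 CPM in stress, a log2 ratio of -0.32 (95% interval -0.44 to -0.21). It was lower in stress in 5 of 8 cortex clusters. A UMI of Cox7a1 was found in 49.97% and 40.96% of cortex cells and 2.30% and 3.84% of adrenal macrophages (thinned, 11.7% and 9.57% against 0.656% and 0.640%). Gonadotropes had 31.7 CPM in control and 22.7 CPM in stress, a log2 ratio of -0.48 (95% interval -1.02 to 0.04), an interval that holds 0.

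The 3 genes for the membrane ring subunit c of complex V, whose mature proteins are the same, had different levels across classes. Neurons had 857 and 849 CPM of Atp5g1, 377 and 376 CPM of Atp5g2 and 573 and 577 CPM of Atp5g3. Microglia had 263 and 266 CPM, 269 and 227 CPM and 119.8 and 94.9 CPM of the same genes. Adrenal cortex cells had 645 and 659 CPM, 581 and 586 CPM and 562 and 572 CPM. Somatotropes had 512 and 578 CPM of Atp5g1 and 93.3 and 96.9 CPM of Atp5g3. Gonadotropes had 860.2 and 1018 CPM and 337 and 381 CPM of these 2 genes.

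**Figure D2:**
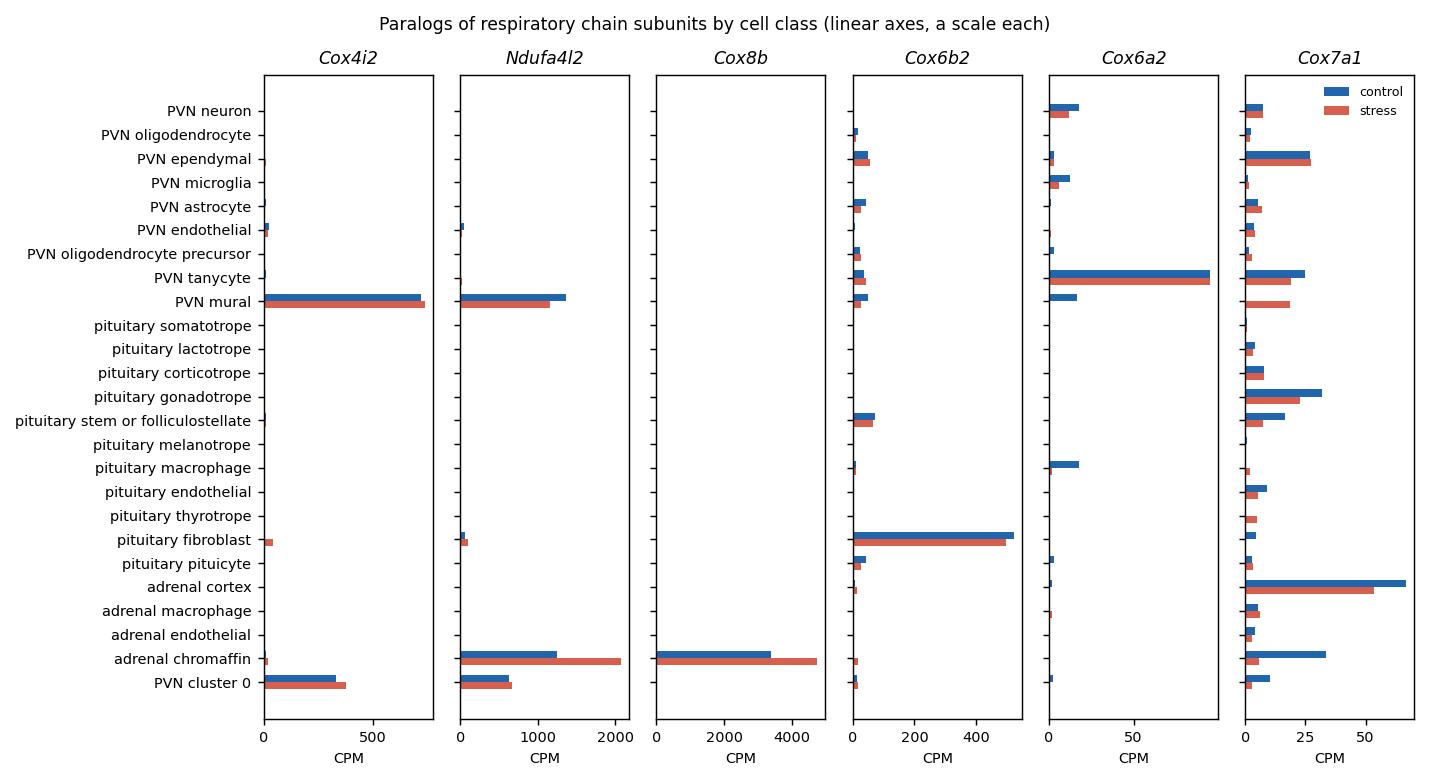
CPM of 6 paralogs in each cell class, control and stress, on linear axes with a scale for each gene. Cox4i2 and Ndufa4l2 mark PVN mural cells and the unnamed vascular cluster 0, Ndufa4l2 and Cox8b mark chromaffin cells, Cox6b2 pituitary fibroblasts, Cox6a2 tanycytes and Cox7a1 adrenal cortex cells.

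Beyond the paralogs, a few members differed most between classes. In PVN, the complex I assembly factor Ndufaf5 was 5.49-fold higher in neurons than in microglia in control and 10.6-fold in stress, and Ndufaf6 was 9.004- and 5.39-fold higher in neurons than in oligodendrocytes. Microglia had 10 and 4 UMIs of Ndufaf5, and oligodendrocytes 12 and 16 of Ndufaf6, so these folds rest on very few counts. The complex II assembly factor Sdhaf4 was 7.19- and 5.26-fold higher in ependymal cells than in oligodendrocytes. In pituitary, Ndufa1 was 7.20- and 7.97-fold higher in gonadotropes than in somatotropes, and Atp5b 6.00- and 6.65-fold higher in endothelial cells than in somatotropes, where the Gh share lowers the CPM of every other gene. In adrenal, Ndufc1 was 6.59- and 6.05-fold higher in cortex cells than in macrophages. Cox7a1 (16.0 and 18.4-fold between cortex and endothelial cells, the latter with 3 and 4 UMIs) and Atp5s (7.63 and 10.7-fold between cortex and macrophages, the latter with 4 UMIs in each library) also rest on very few counts in the lower class.

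The stress over control comparison asks whether the chain differs in cells of the axis after 21 days of social defeat. The nuclear genes stayed close to control in PVN neurons, corticotropes and adrenal cortex cells. Genes with at least 100 UMIs over both libraries were compared, and at least 1.2-fold (a log2 ratio of 0.26) was the size called. In PVN neurons 67 of 91 nuclear genes were higher in stress, with a median log2 ratio of 0.03 (range -0.59 to 0.18), where 56.3% of all genes were higher. None was at least 1.2-fold higher and 1, Cox6a2, was at least 1.2-fold lower, beside 5.82% and 5.18% of all genes. The median was between -0.010 and 0.014 under 5 of the other processings and below 0 under 2 of them, with thinned cells and with the ratio over the other PVN cells subtracted, so its sign depends on the processing.

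By complex in neurons, 29 of 36 complex I genes, 2 of 4 complex II genes, 6 of 8 complex III genes, 10 of 15 complex IV genes and 11 of 15 complex V genes were higher, beside the same 56.3% of all genes; the shares of complexes II and IV are near that background. The log2 ratios of the summed nuclear CPM of the 5 complexes ran from 0.00 to 0.05. Ndufaf1, a complex I assembly factor, had the highest ratio, with 20.1 CPM in control and 22.7 CPM in stress (log2 0.18). Ndufa9, a complex I accessory subunit, was at 119 and 133 CPM (log2 0.17) and Cox5a, a complex IV subunit, at 733 and 801 CPM (log2 0.13). Sdhaf1, a complex II assembly factor, was on the other side at 43.2 and 36.3 CPM (log2 -0.25). Ndufa9, Cox5a and Sdhaf1 in neurons, and the complex I genes of corticotropes below, were picked from either end of their class after its values were seen.

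Among the other PVN classes the nuclear medians ran from -0.07 in ependymal cells to 0.04 in endothelial cells. In ependymal cells 57 of 83 were lower and 10 at least 1.2-fold lower, against 51.3% and 11% of all genes, the count past 1.2-fold being near the background. Sdhb had the lowest ratio, at 153 CPM in control and 105 CPM in stress, a log2 ratio of -0.54 (95% interval -0.82 to -0.26). In astrocytes Uqcrc1, a complex III core subunit, had the highest ratio (226 and 288 CPM, log2 0.35) and Ndufa10 the lowest (167 and 120.2 CPM, log2 -0.48). In oligodendrocyte precursors Uqcr10 was at 325 and 422 CPM (log2 0.38) and Sdhd at 133 and 109.9 CPM (log2 -0.27).

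In oligodendrocytes Sdhaf3 was at 20.5 and 13.7 CPM (log2 -0.57) and Ndufaf5 at 14.7 and 18.5 CPM (log2 0.33). In tanycytes Sdhaf4 was at 113 and 81.4 CPM (log2 -0.46) and Ndufv3 at 169 and 234 CPM (log2 0.47). In endothelial cells Sdhaf1 was at 50.6 and 40.4 CPM (log2 -0.32) and Ndufaf2 at 37.3 and 48.1 CPM (log2 0.36). Of these extremes all but Ndufv3 were assembly factors, but no rule set these classes apart from the other PVN classes. Apart from Sdhaf4 these assembly factors had low levels (13.7 to 50.6 CPM). In neurons and ependymal cells the highest ratio was that of an assembly factor (Ndufaf1, and Ndufaf7 at 0.23) and the lowest was not (Cox6a2 and Sdhb). The extremes of astrocytes, oligodendrocyte precursors and microglia held no assembly factor. Over the 71 nuclear genes compared in all 8 PVN classes, Ndufa3 and Ndufc1 were higher in every class and Uqcrfs1, the Rieske iron-sulfur protein of complex III, lower in every class, where 1.77% and 2.23% of all genes did so. Both counts are near that background.

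PVN microglia, the resident immune cells of the brain, showed a wide separation between the 2 parts of the chain. Their nuclear genes had a median log2 ratio of 0.02, with 39 of 73 higher (all genes 55.5%). All 11 mitochondrially encoded genes compared were lower, 10 of them at least 1.2-fold, with a median of -0.45; over all genes 44.5% were lower and 13% at least 1.2-fold lower. For complex IV, mt-Co1 was at 3514 CPM in control and 2663 CPM in stress, a log2 ratio of -0.40 (95% interval -0.48 to -0.32). For complex III, mt-Cytb was at 3777 CPM in control and 2645 CPM in stress, a log2 ratio of -0.51 (95% interval -0.60 to -0.43). The exception in size was mt-Nd3 of complex I, at 219 CPM in control and 201 CPM in stress (log2 -0.12). Microglia comprised 215 and 173 cells, with median depths of 4334 and 3571 UMIs. Among their nuclear genes Ndufb2 had the highest ratio (80.6 and 121 CPM, log2 0.58) and Ndufb6 the lowest (96.1 and 73.3 CPM, log2 -0.38), both accessory subunits of complex I.

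The mitochondrially encoded genes of PVN neurons went the other way. In neurons all 13 were higher in stress, with a median log2 ratio of 0.10, and 2 were at least 1.2-fold higher, beside 56.3% and 5.82% of all genes. These were mt-Nd3, at 311 CPM in control and 397 CPM in stress, a log2 ratio of 0.35 (95% interval 0.30 to 0.40), and mt-Atp8 of complex V, at 36.9 CPM in control and 47.99 CPM in stress, a log2 ratio of 0.38 (95% interval 0.23 to 0.53). Ratios were smaller for the complex IV subunits: mt-Co1 was at 5458 and 5799 CPM and mt-Co3 at 8866 and 9468 CPM, both with a log2 ratio of 0.09. mt-Nd3 was higher in 9 of 9 neuron clusters, by 0.25 to 0.54, and in 7 of 8 PVN classes, microglia being the exception, with 149.6 CPM in control and 242 CPM in stress in ependymal cells (log2 0.69). mt-Atp8 shares sequence with mt-Atp6, mt-Atp6 with mt-Co3, and mt-Nd4l with mt-Nd4, on the same strand, so reads in these stretches cannot be assigned to 1 gene with certainty.

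The neuron clusters did not all share this direction. Cluster 17, with 101 and 42 cells and led by Oxt, Sst, Avp and Crh, which encode hypothalamic peptide hormones, had a median of 0.35, with 12 of 12 mitochondrially encoded genes higher and 9 at least 1.2-fold higher (all genes 44.3% and 13.1%). Its nuclear genes had a median of -0.04, with 55 of 83 lower (all genes 55.7%). In cluster 5 the mitochondrially encoded median was -0.06, with 9 of 12 lower (all genes 49.4%), and in cluster 9 it was -0.03, with 8 of 12 lower (all genes 48.5%). The other 6 neuron clusters had medians from 0.00 to 0.23.

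Outside neurons the mitochondrially encoded genes of most PVN classes were lower by small amounts. The median was -0.13 in endothelial cells, with 10 of 11 lower (all genes 56.6%), and -0.09 in oligodendrocyte precursors, with 9 of 11 lower (all genes 51.5%). It was -0.08 in astrocytes, with 10 of 11 lower (all genes 52.3%), -0.07 in ependymal cells, with 9 of 12 lower (all genes 51.3%), and -0.02 in oligodendrocytes, with 8 of 12 lower (all genes 51.6%). Tanycytes were on the side of neurons, with a median of 0.12 and 10 of 11 higher (all genes 48.8%). Summed over all kept PVN cells, all 13 were higher (all genes 52.2%), a value that the 6 classes with a median below 0 do not share.

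In the pituitary the mitochondrially encoded genes were lower in stress in most classes: every gene compared was lower in 8 of the 10 classes, 12 of 13 in somatotropes and 6 of 12 in corticotropes. Of all genes, 46.4% (gonadotropes) to 56.6% (melanotropes) were lower in those 8 classes. The share was 83.7% in somatotropes, near their count, and 55.8% in corticotropes. Over all kept pituitary cells 12 of 13 were lower, with a median of -0.19, where 73.2% of all genes were lower. mt-Nd1, mt-Nd2, mt-Nd4 and mt-Nd5 were lower in all 10 classes, as were 5.23% of all genes compared in all 10. mt-Nd3 was at least 1.2-fold lower in each of the 9 classes with enough UMIs, by -0.71 to -0.39 on the log2 scale, and mt-Nd4l in each of 7, by -0.91 to -0.39. In somatotropes, mt-Nd3 was at 171 CPM in control and 121 CPM in stress and mt-Nd4l at 78.8 CPM in control and 55.9 CPM in stress, both lower in 5 of 5 somatotrope clusters. When each gene's ratio over the other cells of the pituitary was subtracted, mt-Nd3 became 0.03 and mt-Nd4l 0.07 in somatotropes, so the other pituitary cells were lower by as much or more.

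Among pituitary classes thyrotropes had the lowest median, -0.35, with 9 of 11 at least 1.2-fold lower (all genes 17.7%), for example mt-Co3 at 18556 CPM in control and 14856 CPM in stress (log2 -0.32) and mt-Nd4l at 299.7 CPM in control and 159.8 CPM in stress (log2 -0.91). Their nuclear genes had a median of 0.11, with 46 of 69 higher (all genes 51.9%). Tshb and Cga, which encode the thyrotropin subunits, held 11.1% of thyrotrope UMIs in control and 14.1% in stress, and without them the mitochondrial median was -0.31. Melanotropes (-0.24), fibroblasts (-0.21), lactotropes (-0.20), somatotropes (-0.18) and gonadotropes (-0.16) followed. In somatotropes the median over all genes was also -0.18. These differences between classes were not tested. Pituicytes, glia of the posterior lobe with 54 and 40 cells, went the other way, with a median of 0.15 and 9 of 10 higher (all genes 52.7%).

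Corticotropes, the cells that release ACTH and so the pituitary step of the axis, had values near no change, and their difference from the other pituitary classes was not tested. Their mitochondrial median was -0.01, with 6 of 12 higher (all genes 44.2%). Of the complex IV and V messages, mt-Co1 was at 8969.7 CPM in control and 9682 CPM in stress (log2 0.11) and mt-Atp6 at 8935 CPM in control and 9479.8 CPM in stress (log2 0.09). All 6 complex I messages compared were lower, mt-Nd3 at 263 CPM in control and 186 CPM in stress (log2 -0.50) and mt-Nd4l at 141 CPM in control and 104 CPM in stress (log2 -0.43). Relative to the other cells of the pituitary, the corticotrope mitochondrial median was 0.20.

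Nuclear complex I genes of corticotropes also tended to be lower: 26 of 36 were, with a median of -0.11, whereas complexes II to V had medians from -0.01 to 0.09. Ndufa5 was at 355 CPM in control and 278 CPM in stress, a log2 ratio of -0.35 (95% interval -0.53 to -0.18). Ndufb8 (371 and 299 CPM, log2 -0.31) and Ndufa3 (269 and 223 CPM, log2 -0.27) were also at least 1.2-fold lower, 3 of 36 in all, where 17.3% of all genes were. The complex II anchor gene Sdhd was higher, at 89.6 and 115 CPM (log2 0.36). Over all 81 nuclear genes compared 46 were lower, beside 55.8% of all genes, which is close to the background.

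Other pituitary classes varied in both directions for the nuclear genes. In gonadotropes 64 of 85 were higher (all genes 53.6%) and 14 at least 1.2-fold higher (all genes 14.8%), the count past 1.2-fold being near the background. Cox5a had the highest ratio, at 165 CPM in control and 227 CPM in stress, a log2 ratio of 0.46 (95% interval 0.27 to 0.65). Cox5a also had the highest ratio in lactotropes, 128 CPM in control and 168 CPM in stress, a log2 ratio of 0.39 (95% interval 0.22 to 0.55). In melanotropes 53 of 74 were higher, against 43.4% of all genes. In pituitary endothelial cells 15 of 71 were at least 1.2-fold lower, against 17.6% of all genes, which is also near the background. Ndufa3 had the lowest ratio there, at 356 CPM in control and 219 CPM in stress (log2 -0.70).

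Of the 60 nuclear genes compared in all 10 pituitary classes, Atp5f1, Cox4i1 and Cox5a were higher in every class (3.83% of all genes) and Atp5e, Atp5k and Ndufa3 lower in every class (5.23% of all genes). Both counts are near the background. Atp5k, a small accessory subunit of complex V, and Ndufa3 were at least 1.2-fold lower in 7 of 10 classes each, by -0.59 to -0.06 and -0.70 to -0.10. In the other direction Ndufb6 was at least 1.2-fold higher in 5 of 10 (-0.09 to 0.64), and Atp5o (-0.01 to 0.48) and Atp5f1 (0.02 to 0.46) in 4. In PVN, by contrast, Ndufa3 was higher in all 8 classes, and the difference between the tissues was not tested.

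In somatotropes the nuclear genes had a median log2 ratio of -0.06, with 62 of 89 lower, but all genes of that class had a median of -0.18 and 83.7% were lower. With Gh left out of the totals the nuclear median was 0.06 and the mitochondrial median -0.07. The somatotrope clusters differed: cluster 0, with 859 and 947 cells, had a nuclear median of 0.33, with 70 of 83 higher and 47 at least 1.2-fold higher (all genes 56.9% and 21.7%), while the other 4 had medians from -0.20 to -0.04. All 12 mitochondrially encoded genes compared in cluster 0 were lower, with a median of -0.24, beside 43.1% of all genes. Ndufs1, the large iron-sulfur subunit of complex I, had the lowest ratio, 25.1 CPM in control and 18.3 CPM in stress, a log2 ratio of -0.45 (95% interval -0.60 to -0.30), and Atp5o, the stalk subunit of complex V, the highest, 68.2 CPM in control and 83.3 CPM in stress, a log2 ratio of 0.29 (95% interval 0.21 to 0.37). Ndufs1 also had the lowest ratio in stem or folliculostellate cells, 56.3 CPM in control and 35.9 CPM in stress (log2 -0.65).

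**Figure D3:**
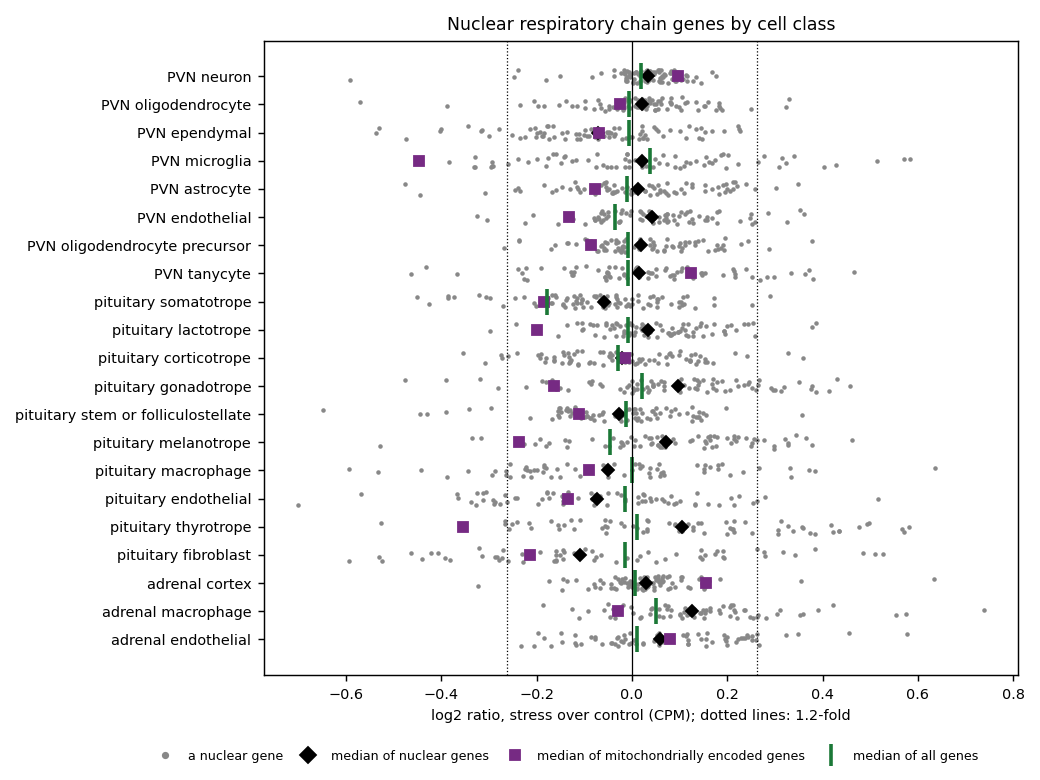
Log2 ratio of stress over control CPM for each nuclear respiratory chain gene with at least 100 UMIs, by cell class, with the medians of nuclear genes, mitochondrially encoded genes and all genes. Nuclear medians lie between -0.11 and 0.13, while the mitochondrially encoded median of microglia is -0.45, of thyrotropes -0.35 and of adrenal cortex cells 0.16.

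In the adrenal cortex, the steroid-making target of ACTH, nuclear genes again stayed near control and the mitochondrially encoded genes split by gene. Of 90 nuclear genes 61 were higher, with a median of 0.03 (all genes 51.3% higher), and 2 were at least 1.2-fold higher (all genes 8.72%). These were Cox6b2, at 7.90 CPM in control and 12.3 CPM in stress, a log2 ratio of 0.63 (95% interval 0.36 to 0.92), and the complex I assembly factor Ndufaf4, at 50.4 CPM in control and 64.4 CPM in stress (log2 0.35). Cox7a1, above, was the single gene at least 1.2-fold lower (all genes 10.9%).

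Of the 13 mitochondrially encoded genes of cortex cells, 9 were higher and 4 lower. mt-Cytb was at 5853 CPM in control and 7287 CPM in stress, a log2 ratio of 0.32 (95% interval 0.31 to 0.33), mt-Nd4 at 4199.9 and 5124 CPM (log2 0.29) and mt-Nd4l at 229 and 327 CPM (log2 0.51). The ratios of mt-Cytb and mt-Nd4l were above 0 in 8 of 8 cortex clusters but differed widely in size. That of mt-Cytb ran from 0.003 in cluster 0 (95% interval -0.03 to 0.03) to 0.80 in cluster 12. That of mt-Nd4l ran from 0.10 in cluster 2 (95% interval -0.05 to 0.25) to 1.37 in cluster 12. mt-Co1 was at 14244 CPM in control and 12318 CPM in stress, a log2 ratio of -0.21 (95% interval -0.22 to -0.20), and lower in 7 of 8 clusters; mt-Atp8 (114 and 87.6 CPM) and mt-Nd6 (28.1 and 22.6 CPM) were lower by at least 1.2-fold. mt-Nd6 lies opposite mt-Nd5 on the other strand.

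One cortex cluster stood apart. Cluster 12, led by Abcb1b and Aldh1a1 (58 and 81 cells), held 11.5% and 18.7% mitochondrially encoded UMIs in control and stress and 4.44% and 4.42% nuclear ones, while the other 7 cortex clusters held 5.10% to 8.70% mitochondrially encoded. All 12 mitochondrially encoded genes compared were at least 1.2-fold higher in stress, with a median of 0.70 (16.5% of all genes), and its nuclear genes had a median of -0.01. The size of this difference varied with the limit on barcodes. The summed log2 ratio was 0.70 with the limit of 25% and 1.01 with no limit (95 and 293 cells). It was 0.08 with a limit of 10%, which left 25 and 5 cells. A limit of 10% caps the share that is compared, so that value cannot tell whether the difference holds. Without cluster 12 the mitochondrial median of all cortex cells was 0.09, against 0.16 with it and 0.50 with no limit. Barcodes over the limit were 5.58% of the adrenal control library (95% Clopper-Pearson interval 4.68 to 6.59) and 11.9% of the stress library (10.8 to 13.1), most of them nearest to cortex cells (120 of 124 and 313 of 330 with at least 200 genes), and their part in the difference was not tested.

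**Figure D4:**
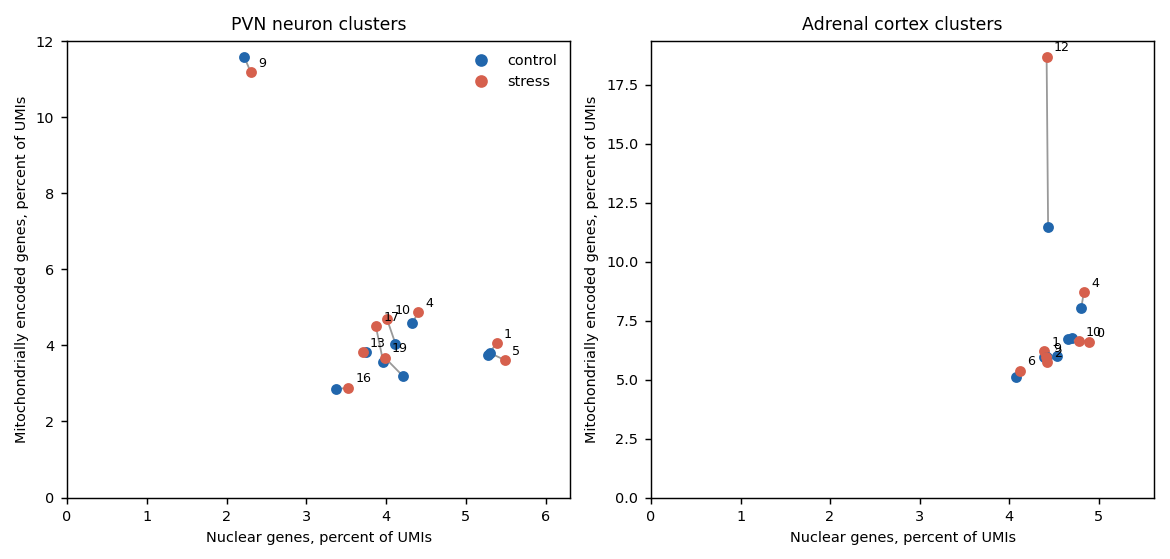
Nuclear and mitochondrially encoded shares of UMIs in each PVN neuron cluster (left) and adrenal cortex cluster (right), control joined to stress by a line, both axes linear and from 0. PVN cluster 9 lies apart in both libraries (11.6% and 11.2% mitochondrially encoded), whereas adrenal cluster 12 lies apart mostly in stress (11.5% and 18.7%).

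In adrenal macrophages the nuclear genes were higher in 62 of 75 cases (all genes 58.1%), with a median of 0.13. At least 1.2-fold higher were 11 and lower by as much were 0, against 20.2% and 13.4% of all genes. Sdhaf4 had the highest ratio, at 21.7 CPM in control and 36.4 CPM in stress, a log2 ratio of 0.74 (95% interval 0.24 to 1.28). Their mitochondrially encoded median was -0.03, with mt-Nd3 at 107 CPM in control and 70.6 CPM in stress (log2 -0.60). In adrenal endothelial cells 49 of 77 nuclear genes were higher (all genes 51.6%), led by Uqcrfs1 at 93.3 CPM in control and 139.9 CPM in stress, a log2 ratio of 0.58 (95% interval 0.18 to 1.01). RNA of cortex genes was also found in these classes and moved with the change in endothelial cells. Of 12 markers of cortex cells none was at 0 in either class; their summed level was 1267 CPM in control and 1732 CPM in stress (log2 0.45, 95% interval 0.34 to 0.56) in endothelial cells, with 7 of 7 markers compared higher and 6 at least 1.2-fold higher, and 1101 CPM in control and 1159 CPM in stress (log2 0.07, 95% interval 0.00 to 0.15) in macrophages, with 4 of 8 higher. In cortex cells themselves the sum was 21619 CPM in control and 20374 CPM in stress (log2 -0.09, 95% interval -0.09 to -0.08). Of 5 genes of mitochondrial steroid synthesis, 5 were at least 1.2-fold higher in endothelial cells (median 0.50) and 4 were higher in macrophages (median 0.19, Fdx1 0.69). Of all genes 15.5% were at least 1.2-fold higher in endothelial cells. Star, Cyp11a1, Fdx1 and Fdxr stand in both this list and the marker list, so the counts of these lists are not independent. The part of such RNA in the nuclear ratios was not tested. Over the 75 nuclear genes compared in all 3 adrenal classes, 34 were higher in every class and 1, Uqcrc1, lower in every class, beside 24.3% and 10.0% of all genes.

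Set side by side, mt-Nd3 differed in direction between the tissues, which was not tested. It was higher in 7 of 8 PVN classes and lower in every pituitary and adrenal class with enough UMIs to compare. mt-Co1 was lower in 7 of 8 PVN classes, 9 of 10 pituitary classes and 2 of 3 adrenal classes, with PVN neurons, corticotropes and adrenal macrophages as the exceptions. The comparisons within a tissue share the same 2 suspensions, so agreement between classes is not independent.

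**Figure D5:**
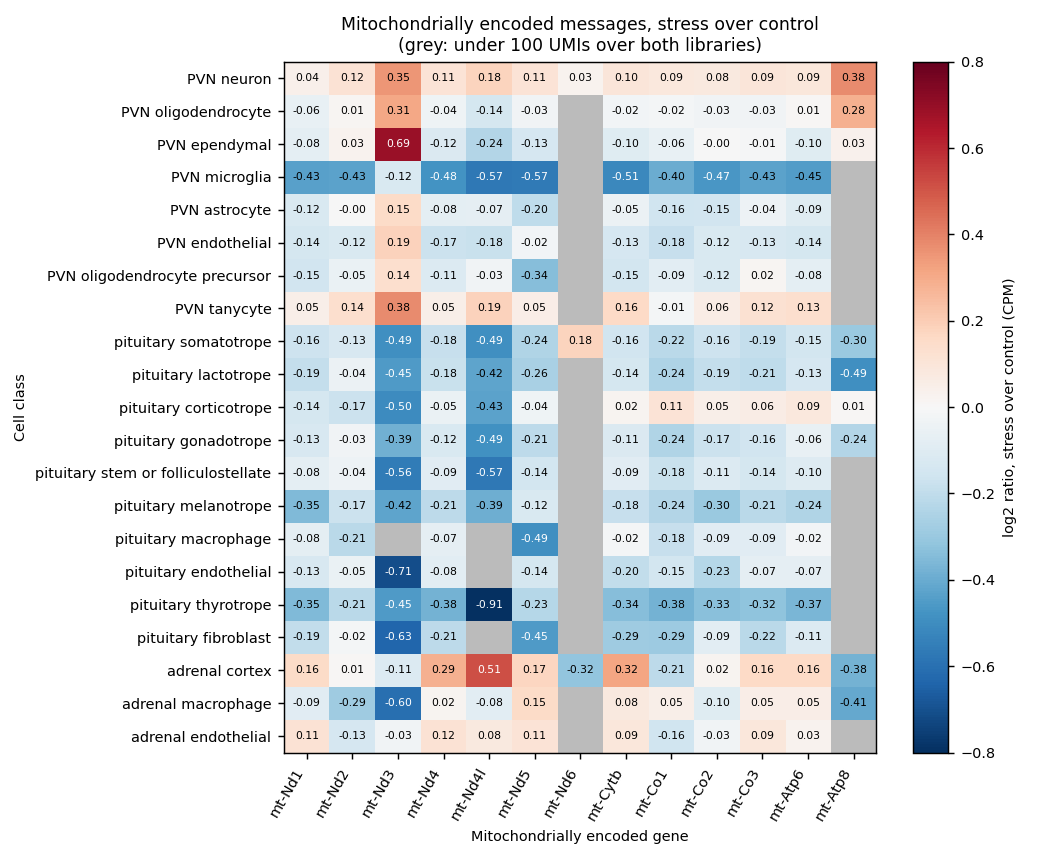
Log2 ratio of stress over control CPM for each of the 13 mitochondrially encoded genes in each of the 21 classes compared; red is higher and blue lower in stress, grey marks fewer than 100 UMIs over both libraries. The mt-Nd3 column is positive for most PVN classes (up to 0.69) and negative throughout pituitary (down to -0.71), and the microglia and thyrotrope rows are low across nearly all genes.

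Other mitochondrial and glycolytic lists of genes outside the prefixes were followed in the 3 main cell types of the axis. In PVN neurons 11 of 14 TCA cycle genes were higher (median 0.08), 13 of 16 glycolysis genes (median 0.05), 44 of 76 mitochondrial ribosome genes (median 0.01) and 15 of 18 genes of biogenesis and mitochondrial genome expression (median 0.15), where 56.3% of all genes were higher; the share of ribosome genes is near that background. Within the last list Gabpa, an ETS-family activator of respiratory genes, had the highest ratio (log2 0.41) and Mterf1a the lowest (-0.34). In corticotropes 4 of 11 TCA cycle and 32 of 68 mitochondrial ribosome genes were higher (all genes 44.2%), with medians of -0.02 and -0.01; the highest ratios were Ldha, lactate dehydrogenase A (0.62), and Slc25a3, the mitochondrial phosphate carrier (0.60).

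In adrenal cortex cells, where 51.3% of all genes were higher, 5 of 6 genes of mitochondrial steroid synthesis and its electron transfer were higher (median 0.19). Their ratios ran from Cyp11a1, the side-chain cleavage enzyme, at -0.16 to Cyp11b2, aldosterone synthase, at 0.65. The class pools clusters whose sizes differed between the libraries. Clusters 0 and 10, with Cyp11b2 among their leading genes, had 171 and 260 cells in control and 188 and 465 in stress. The part of this mix in the Cyp11b2 ratio was not tested. The mitochondrial ribosome genes were higher in 58 of 77 cases (median 0.04), against the same share of all genes. Among glycolysis genes Pgk1 had a log2 ratio of 0.76 and Hk2 of -0.77, with a list median of 0.03. Ppargc1a, a coactivator of mitochondrial biogenesis, had a log2 ratio of 0.54.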

How the data were processed

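Single cells of 3 tissues were profiled with the 10x Single Cell v2.0 kit in 6 libraries, 1 per tissue and condition, per the labels' protocols. The deposited files hold unnormalized UMI counts per gene and barcode, made by the authors with Cell Ranger 2.1.1 on mm10, with Scanpy also named, per the submitters' processing notes. Strand use in counting is not given in the sources used here.

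Barcodes with over 25% mitochondrial UMIs, under 200 genes or called as doublets (by comparison with simulated doublets) were removed. Cells of a tissue were clustered jointly (2000 variable genes, 30 components, 15 neighbours, Leiden resolution 1), leaving out the respiratory chain, ribosomal, haemoglobin, heat-shock, immediate-early and sex-linked genes. Clusters were named from markers by a rule set after the clusters were seen. Counts were summed per class and library, and ratios used 0.5 added UMIs, genes with at least 100 UMIs over both libraries, exact Poisson and Clopper-Pearson 95% intervals for levels and shares, and an exact conditional binomial interval for ratios. These cover counting error only, with 29059956 to 53244403 UMIs per library behind them. The ratio intervals were checked on simulated data. Python 3.11.15, numpy 2.4.6, scipy 1.17.1, pandas 2.3.3, scanpy 1.11.5, scikit-learn 1.9.0, igraph 0.11.9 and matplotlib 3.10.9 were used.

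The members, lists and alternatives were chosen with earlier results of these data known. Named genes were all mitochondrially encoded genes, paralogs of 1 subunit, the nuclear gene with the most UMIs in each complex, the highest and lowest ratio in each class, the 3 genes past 1.2-fold in most classes in each direction, and the 3 with the largest fold between classes; a few others are named as chosen after their values were seen. Alternatives covered scaling, filters, thinning, doublets, clustering resolution and the mitochondrial limit. RefSeq promoters came from a table on GRCm38.p6 and gene positions from GENCODE vM21 on GRCm38.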

Additional observations from a re-analysis of the deposited data

Results flagged for a closer look

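The median log2 ratio of stress over control for the mitochondrially encoded genes over all kept cells was 0.06 in PVN and -0.19 in pituitary, a difference of 0.243. Every one of the 13 genes was higher in PVN (all genes 52.2%) and 12 of 13 were lower in pituitary (all genes 73.2%), with mt-Nd6 as the exception. Within the tissues, the median was below 0 in 6 of the 8 PVN classes (PVN neurons and tanycytes being the others) and in all 10 pituitary classes compared, so the PVN value over all cells is not that of most of its classes. Between pituitary and adrenal, where the median was 0.05, the difference was -0.242. Each tissue has 1 library per condition, so neither difference was tested.

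Barcodes above the limit on mitochondrial share, which enter no comparison of classes, made up 11.9% of the adrenal stress library and 5.58% of the adrenal control library. In these barcodes the mitochondrially encoded genes held 39.0% of UMIs in control and 48.4% in stress, and the nuclear respiratory chain genes 1.86% and 1.93%. In PVN the share of barcodes above the limit was 0.903% in control and 1.27% in stress, and in pituitary 0.865% and 0.294%.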

How the results depend on the processing

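Values here are log2 ratios of stress over control. Relative to the main setting of 0.03, the nuclear median of PVN neurons was 0.014 when centred on all genes, 0.0051 as the mean of each cell's CPM, -0.00074 when thinned, 0.0069 with clusters weighted equally and -0.010 after the ratio of the other PVN cells was subtracted. Their mitochondrial median of 0.10 was 0.075 with a limit of 10% and 0.068 without the cluster of highest mitochondrial share. In somatotropes the nuclear median of -0.06 was 0.12 centred, -0.031 with other cells subtracted and 0.061 without Gh, and the mitochondrial median of -0.18 was -0.0057 centred, -0.14 as the mean of each cell's CPM, 0.019 with other cells subtracted and -0.065 without Gh. In corticotropes the nuclear median of -0.02 was -0.079 as the mean of each cell's CPM and -0.078 thinned, and the mitochondrial median of -0.01 was 0.20 with other cells subtracted. In adrenal cortex the nuclear median of 0.03 was -0.014 with no limit and 0.010 with clusters weighted equally, and the mitochondrial median of 0.16 was 0.50 with no limit. The alternatives that leave out a cluster or hormone UMIs, and those on cortex cluster 12, were chosen after seeing the data; in cluster 12 the summed ratio was also 0.69 with doublets kept and 0.59 thinned.

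Among named genes past 1.2-fold, 24 values changed sign and the cause was not tested, except that subtracting the other cells removes what the library's cells share. With other cells subtracted these were PVN oligodendrocyte mt-Atp8 (-0.015) and mt-Nd3 (-0.038); somatotrope Atp5k (0.025), mt-Atp8 (0.17), mt-Nd3 (0.027) and mt-Nd4l (0.072); lactotrope mt-Nd3 (0.052) and mt-Nd4l (0.11); corticotrope Atp5k (0.031), Ndufa3 (0.056) and mt-Nd4l (0.094); gonadotrope mt-Nd3 (0.094); melanotrope mt-Nd3 (0.077) and mt-Nd4l (0.13); pituitary macrophage Ndufa3 (0.065); thyrotrope Ndufa3 (0.068) and mt-Nd3 (0.055); cortex Cox7a1 (0.69), mt-Atp8 (0.11) and mt-Nd6 (0.21); and adrenal macrophage mt-Atp8 (0.015). With no limit they were cortex mt-Atp8 (0.018) and adrenal macrophage mt-Nd2 (0.035), and when thinned, ependymal Cox7a2l (0.051). Medians were compared with an interval of the main median that reflects the spread of ratios over its genes and not counting error. Over all 21 classes and all alternatives, 230 nuclear medians stayed within that interval and 30 did not. For mitochondrially encoded medians, 212 stayed within it and 48 did not. With so few genes that interval can be wide, from -0.21 to 0.29 for the 13 mitochondrially encoded genes of adrenal cortex cells. Staying within it therefore does not show stability against counting error. No paired analysis was possible because each group is 1 library. Genes with few UMIs are limited by depth, as their intervals show.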

Other observations

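Cox8b, chosen after its values were seen, had 3 UMIs over the kept PVN cells of control and 104 over those of stress. Of the 104 UMIs, 103 came from 4 of the 8 stress cells of an unnamed cluster led by Ttr, Igfbp2, Kcnj13 and Folr1, and 87 came from 1 cell of 19379 UMIs, of which 0.0413% were mitochondrially encoded. The value over all PVN cells therefore describes very few cells.

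In adrenal macrophages other mitochondrial gene lists outside the respiratory chain were also higher. Of the 60 mitochondrial ribosome genes compared, 54 were higher in stress and 23 at least 1.2-fold higher, with a median log2 ratio of 0.20, beside 58.1% and 20.2% of all genes of that class. Of 12 genes of mitochondrial stress and turnover, 10 were higher, with a median of 0.26, led by the chaperone gene Hspe1 (0.74), and 11 of 14 TCA cycle genes were higher, with a median of 0.15. Genes of cortex cells were found there too, but did not rise as a set. Of 5 genes of mitochondrial steroid synthesis, 4 were higher, with a median of 0.19 and Fdx1 at 0.69. Of the 12 markers of cortex cells, 8 were compared and 4 of these were higher, with a median of -0.009. The summed level of the 12 markers had a log2 ratio of 0.07, with a counting interval of -0.003 to 0.15. The part of such RNA in these values was not tested. Hk2, a hexokinase at the entry of glycolysis, had a log2 ratio of -1.05. In PVN microglia the mitochondrial ribosome genes had a median of 0.00, with 9 of 19 higher, beside the lower mitochondrially encoded genes of that class.

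One somatotrope cluster, cluster 0, with 859 control and 947 stress cells, held 0.63% and 0.77% nuclear respiratory chain UMIs and 3.57% and 3.04% mitochondrially encoded UMIs, against 1.35% and 1.31% nuclear UMIs over all somatotropes.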
